A study of Mus musculus with 5 samples.

Results

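The cells described here are the colonocyte-like end of the columnar epithelium in chemotherapy-treated colon tumors of the mouse. They are the 25% of eligible columnar cells in each tumor library with the highest share of UMIs (unique molecular identifiers, 1 per captured RNA molecule) from Clca4a, Clca4b, Krt20 and Muc3. They number 881 of 3522 eligible columnar cells, of 7396 treated cells that passed quality control and of 8491 cells in the whole series. Eligible cells had at least 500 genes and at most 15% mitochondrial UMIs, carried at least 5 UMIs of Krt8, Krt18 and Lgals4 together and more of these than of Krt5 and Krt14, had fewer than 3 UMIs of a set of leukocyte, endothelial and fibroblast genes, had fewer than 2 UMIs of Lgr5, and had fewer than 3 UMIs of 4 mitotic genes. The 25% of the same cells with the lowest share, called low-score cells here, served as the comparison. Because members were chosen by the summed level of these 4 score genes, their levels and every difference between members and low-score cells are given as a description without a test.

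All tumors were induced with azoxymethane and dextran sodium sulfate (AOM/DSS, a carcinogen followed by a colitis-inducing agent) in WT mice and were treated with 5FU+Irinotecan, a pyrimidine antimetabolite with a topoisomerase I inhibitor. The tumor libraries are day 1 replicate 1, day 1 replicate 2, day 3 and day 6, and the day 1 pair is the early and the day 3 and day 6 pair the late phase of treatment. Day 1 replicate 1 and day 3 were built as single-index libraries, and the others as dual-index ones, so each phase holds 1 of each. The sources differ on whether days count from the start of treatment or from its last cycle. The fifth library is untreated WT colon prepared by a fibroblast dissociation. Each library is 1 inDrop sample, so days 3 and 6 have no replicate of their own, no untreated tumor was analysed here, and the age and sex of the mice behind each library are not in the labels. Whether an individual cell is neoplastic was not measured.

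In the normal colon, columnar cells leave the Lgr5-positive crypt base, stop dividing and mature into absorptive colonocytes as they move to the luminal surface, where they are shed. Mature colonocytes carry a brush border of actin-filled microvilli, exchange chloride, bicarbonate, sodium and protons, and take up short-chain fatty acids. Krt20 encodes a keratin filament protein of this surface compartment, Muc3 a membrane-bound mucin of the brush border, and Clca4a and Clca4b neighboring genes of the chloride channel accessory family. Wnt signaling is highest at the crypt base and in most colon tumors it is active throughout.

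In mouse genome build GRCm38, Clca4b lies at chr3:144910921-144932529 and Clca4a at chr3:144952480-144975045, both on the minus strand. Muc3 lies at chr5:137134922-137149322 and Krt20 at chr11:99428403-99438150, also on the minus strand. Clca4a and Clca4b shared 4.03% of the 30-base words in the last 500 bases of their transcripts, the part that a 3′ assay reads, so most of their UMIs could be told apart. The 250 bases before the RefSeq start of Clca4b and Krt20 (build GRCm38.p6, minus strand, at chr3:144932530-144932779 and chr11:99438154-99438403) are printed because these genes define the cells. Capitals mark the letters TTTATNG, a core that Cdx factors bind, and CACCC, a core that Klf factors bind, on either strand. Of 32851 promoters of this length, 9.81% hold the first and 52.0% the second.
Clca4b: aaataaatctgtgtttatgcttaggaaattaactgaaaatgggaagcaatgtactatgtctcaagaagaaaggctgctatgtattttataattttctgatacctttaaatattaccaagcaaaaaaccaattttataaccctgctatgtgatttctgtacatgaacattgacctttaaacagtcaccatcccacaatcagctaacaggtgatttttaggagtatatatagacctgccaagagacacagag
Krt20: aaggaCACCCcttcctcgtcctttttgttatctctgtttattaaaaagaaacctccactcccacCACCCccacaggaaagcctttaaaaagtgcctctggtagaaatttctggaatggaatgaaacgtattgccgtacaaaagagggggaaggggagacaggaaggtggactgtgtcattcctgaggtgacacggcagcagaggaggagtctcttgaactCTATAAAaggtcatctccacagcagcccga
Krt20 holds 1 match to the first core and 2 to the second, and Clca4b holds neither. The match to the first core reads CTATAAA close to the start, which are also the letters of a TATA box. These are matches of letters, and binding of any factor was not measured.

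The libraries differed in the score of their cells. The top bin began at a score of 21.3 UMIs per 10000 in day 1 replicate 1, 19.8 in day 1 replicate 2, 37.6 in day 3 and 63.2 in day 6. Both late libraries therefore lay above both early ones, with a mean difference of 29.9, given as a description because an exact two-sided permutation test of 2 libraries against 2 cannot go below 0.333. The low-score set ended at 2.62, 1.95, 8.58 and 14.6 in the same order. The score ran without a break across each cutoff, from 21.1 for the highest cell left out to 21.5 for the lowest member in day 1 replicate 1 and from 63.22 to 63.26 in day 6. Within 10% of the cutoff lay 13, 36, 68 and 96 cells in library order, so the members are a range taken from a gradient.

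**Figure D1:**
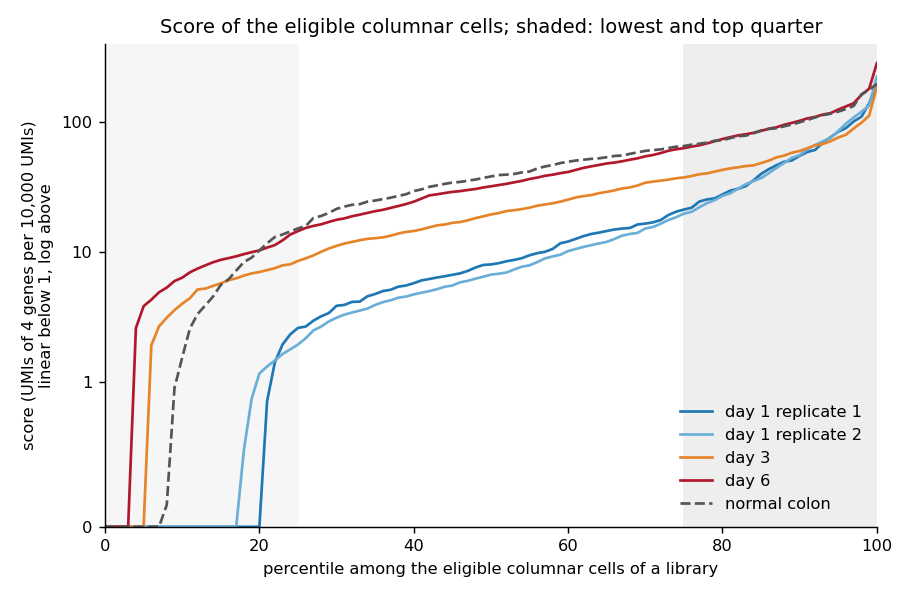
Score of the eligible columnar cells of each library (y axis, UMIs of the 4 score genes per 10000, linear below 1 and logarithmic above) against the percentile of the cell within its library (x axis), with the lowest and top 25% shaded. The day 6 curve lies above the day 3 curve and both lie above the 2 day 1 curves at the 75th percentile, where the cutoffs are 63.2, 37.6, 21.3 and 19.8.

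Members numbered 88, 255, 189 and 349 by library, in the order used above, between 10.6% and 13.3% of the cells kept. Their median depth was 2428, 3857, 3502 and 2622 UMIs against 2323, 3000, 2329 and 2048 in the low-score set, higher in members in each library. Median mitochondrial shares were 2.02% and 2.47% in the day 1 members and 0.688% and 0.665% in the day 3 and day 6 members. Libraries shared between 4 and 41 cell barcodes, and members of any 2 libraries at most 2.

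Muc3 held the largest part of the score in each library. It held 64.6% of the members' score UMIs in day 1 replicate 1, 42.7% in day 1 replicate 2, 71.1% in day 3 and 36.8% in day 6, where Clca4b held 30.6%. Most members held more than 1 of the 4 genes: 79.5%, 90.2%, 82.0% and 97.7% of them had UMIs of at least 2. Cells with UMIs of all 4 genes made up 12 of 88, 79 of 255, 25 of 189 and 145 of 349.

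In members the level of Muc3 was 4262, 2679, 4241 and 3976 CPM (counts per 1000000 UMIs of the summed cells), with the libraries in the order of treatment day as above. Krt20 stood at 1446, 1996, 1398 and 2907 CPM. Both were of the same order in each library, with Krt20 highest at day 6. Clca4b varied most, at 536, 784, 213 and 3302 CPM, and Clca4a stood at 352, 808, 112 and 607 CPM, so both Clca4 genes were lowest at day 3. The free RNA of a library was gauged in its non-epithelial cells, which should lack these genes. They had at least 5 UMIs of the leukocyte, endothelial and fibroblast genes and more of these than of Krt8, Krt18 and Lgals4. They numbered 71, 317, 20 and 99 in library order. No limit was set on Krt5 and Krt14, so squamous cells and doublets could be among them. Their levels were 217, 153, 744 and 204 CPM of Muc3 and 95.1, 97.8, 82.7 and 272 CPM of Krt20. Members lay above that level in each library. The Muc3 of the low-score set, at 50.3, 36.5, 374 and 258 CPM, lay below it in all but day 6, and its Krt20, at 15.9, 33.4, 84.8 and 326 CPM, lay below it in the day 1 libraries and above it at days 3 and 6, so UMIs of the score genes there may not be expression. In shares of cells thinned to 1000 UMIs, Krt20 was found in 58.0%, 64.3%, 56.1% and 81.2% of members and in 8.45%, 11.4%, 10% and 26.5% of the non-epithelial cells, at median depths of the latter of 2514, 2464, 3086 and 4040 UMIs. Without thinning these shares were 77.3%, 85.1%, 77.2% and 92.3% of members and 29.6%, 28.1%, 10% and 70.7% of non-epithelial cells.

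Each score gene was also followed in bins drawn from the other 3. With Krt20 left out of the score, its log2(CPM + 10) difference between members and low-score cells was 2.63 ± 0.69 (SD, n = 4 libraries). Clca4a, Clca4b and Muc3 left out in the same way differed by 4.32 ± 1.15, 4.29 ± 0.72 and 1.40 ± 0.66. All 16 of these differences were above 0, the smallest being 0.84 for Muc3 in day 3 and in day 6. Without Muc3 the low-score set ended at a score of 0 in the day 1 and day 3 libraries and was larger there. It held 182 of 351, 411 of 1020, 331 of 756 and 349 of 1395 eligible cells in library order. The neighboring gene model Muc3a did not follow Muc3: it stood at 43.7, 45.8, 80.01 and 16.9 CPM in members and at 55.6, 36.5, 54.5 and 26.4 CPM in the low-score set.

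The low-score set was a mixture, and this bears on each comparison with it. Plasma cell genes (Igkc, Jchain, Mzb1, Cd79a, Cd79b, Ms4a1) made up 3.08%, 0.832%, 0.0242% and 7.32% of its UMIs, against 0.291%, 0.0963%, 0.0302% and 0.636% in members. Globin genes, which mark red cells, made up 3.26%, 3.01%, 0.0251% and 0.484% of its UMIs and 0.631%, 0.184%, 0.00273% and 0.00862% of the members'. Cells with at least 2% of their UMIs from plasma cell, globin, enteroendocrine or goblet genes were 18, 48, 12 and 90 cells of the low-score set but 12, 11, 1 and 3 members. Summed goblet markers ranged from 1849 to 6881 CPM in members and from 3949 to 11400 CPM in the low-score set, and summed Paneth markers from 256 to 1637 against 553 to 4590 CPM. In the non-epithelial cells goblet markers summed to 5275, 1754, 1985 and 1731 CPM in library order. Paneth markers summed there to 1803, 995, 1335 and 257 CPM, and the part of free RNA in the members' sums was not tested. Neutrophil, macrophage, T cell, endothelial and fibroblast lists each summed to at most 126 CPM in members and at most 546 CPM in the low-score set. Values without the cells rich in other types' genes are therefore given beside those of all cells.

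Of 9144 genes with a mean of at least 10 CPM and at least 80 UMIs over the 8 sums, 113 (1.24%) were at least 1 higher on the log2(CPM + 10) scale in members than in the low-score set in each of the 4 libraries, and 89 (0.973%) at least 1 lower. The difference of the median gene was -0.23, so levels are to be read against a small general shift, and with TMM scaling, which brings that shift to -0.02, the counts were 181 higher and 44 lower. Leaving out the cells rich in plasma cell, globin, enteroendocrine or goblet genes gave 105 higher and 126 lower, of which 90 and 68 were among the 113 and 89. Over the other 3 libraries without day 3 the counts were 211 higher and 230 lower, and without day 6 they were 154 and 157. With the end bins fixed by the call, 50 of the 113 higher genes also had their middle bins in rising order in all 4 libraries, and 17 of the 89 lower genes had them in falling order.

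Several of the 15 genes with the largest differences encode products of the luminal surface. Lypd8, a surface protein that keeps flagellated bacteria away from the epithelium, was the most abundant of them at 10315, 10426, 7553 and 31443 CPM in members of day 1 replicate 1, day 1 replicate 2, day 3 and day 6. In the low-score set it stood at 1322, 875, 1888 and 6144 CPM, and the difference was 2.72 ± 0.69 on the log2 scale. Its level in day 6 low-score cells lay close to the day 3 members. In cells thinned as above, Lypd8 was found in 63.4%, 61.5%, 80% and 91.8% of non-epithelial cells in library order. The shares were 70.5%, 60.8%, 79.9% and 99.7% in the low-score set and 98.9%, 94.9%, 99.5% and 100% in members. The part of free RNA in the levels of Lypd8 was not tested. Dmbt1, a secreted scavenger receptor that binds bacteria, stood at 3498, 1732, 3775 and 4326 CPM in members and 138, 73.6, 503 and 553 CPM in the low-score set, a difference of 3.70 ± 0.90. Saa1, an acute-phase protein, stood at 766, 223, 189 and 3099 CPM in members and at 63.6, 22.3, 54.5 and 285 CPM in the low-score set. 2010109I03Rik led the list, with 723, 1238, 1322 and 2194 CPM in members and 55.6, 47.6, 206 and 86.3 CPM in the low-score set (3.76 ± 0.89).

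Transporters and metabolic enzymes were also among the 15. Car1, a carbonic anhydrase, stood at 1581, 883, 395 and 1849 CPM in members against 84.7, 60.0, 66.6 and 343 CPM (3.14 ± 0.87). Atp12a, the colonic proton-potassium pump, differed by 2.91 ± 0.93 and reached 945 CPM in day 6 members but 121, 95.8 and 64.8 CPM in the others. Aldh1a3, which makes retinoic acid, differed by 2.49 ± 0.88 and Sult1b1, a sulfotransferase, by 2.46 ± 0.74. Pde9a, a cyclic GMP phosphodiesterase, differed by 2.79, Pmp22, a membrane protein of cell junctions, by 2.62 ± 0.30, Itih5, a protease inhibitor heavy chain, by 2.63 and Thbs4, a matrix thrombospondin, by 2.88. Ceacam20, an adhesion protein of the brush border, stood at 141, 138, 96.2 and 497 CPM against 10.6, 7.42, 13.6 and 24.9 CPM (3.00 ± 0.70). Of these 15 genes 12 were still called without the cells rich in other types' genes. Gsdmc2, Itih5 and Aldh1a3 were not, though their mean differences were 2.78, 2.78 and 2.51.

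**Figure D2:**
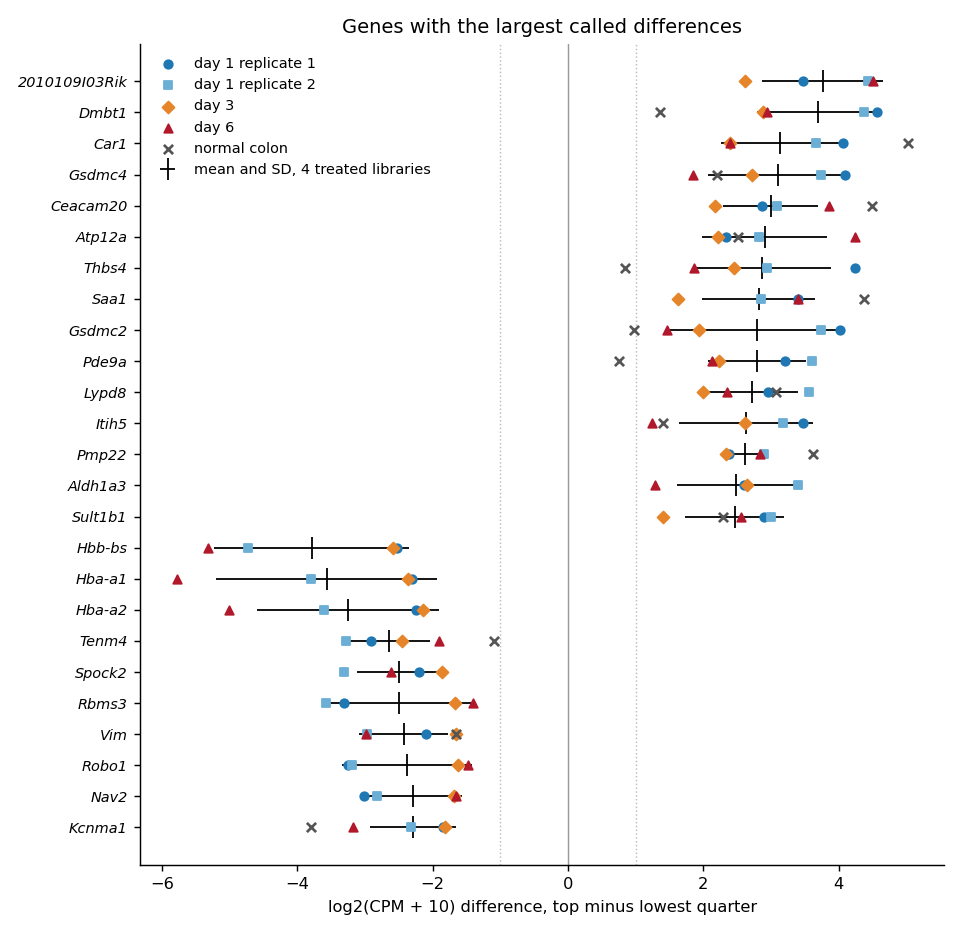
Difference on the log2(CPM + 10) scale between members and low-score cells for the 15 genes with the largest and the 10 with the most negative called difference, by library, with the mean and SD of the 4 tumor libraries and the normal colon library as a cross where the gene passed the filter there. Each tumor library lies beyond the dotted line at 1 or -1 for each gene, as the call requires, and the spread between libraries is widest for the globin genes.

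The gasdermin C genes behaved differently at day 6. These pore-forming proteins are expressed in the upper colonic crypt, and Gsdmc2, Gsdmc3 and Gsdmc4 were all called higher. In the other tumor libraries Gsdmc4 was highest in the top bin, where it stood at 1116, 314 and 572 CPM in day 1 replicate 1, day 1 replicate 2 and day 3. At day 6 it stood at 189, 690 and 1262 CPM in the first 3 bins and at 705 CPM in members. The normal colon library also peaked in the 3rd bin, with 234, 1093, 1629 and 1117 CPM over the 4 score bins. Gsdmc2 at day 6 went from 119 to 496, 688 and 345 CPM. The transcripts of Gsdmc2 and Gsdmc3 share 45.3% of the 30-base words of the 3′ end of Gsdmc2, so the split of UMIs between these genes is uncertain.

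**Figure D3:**
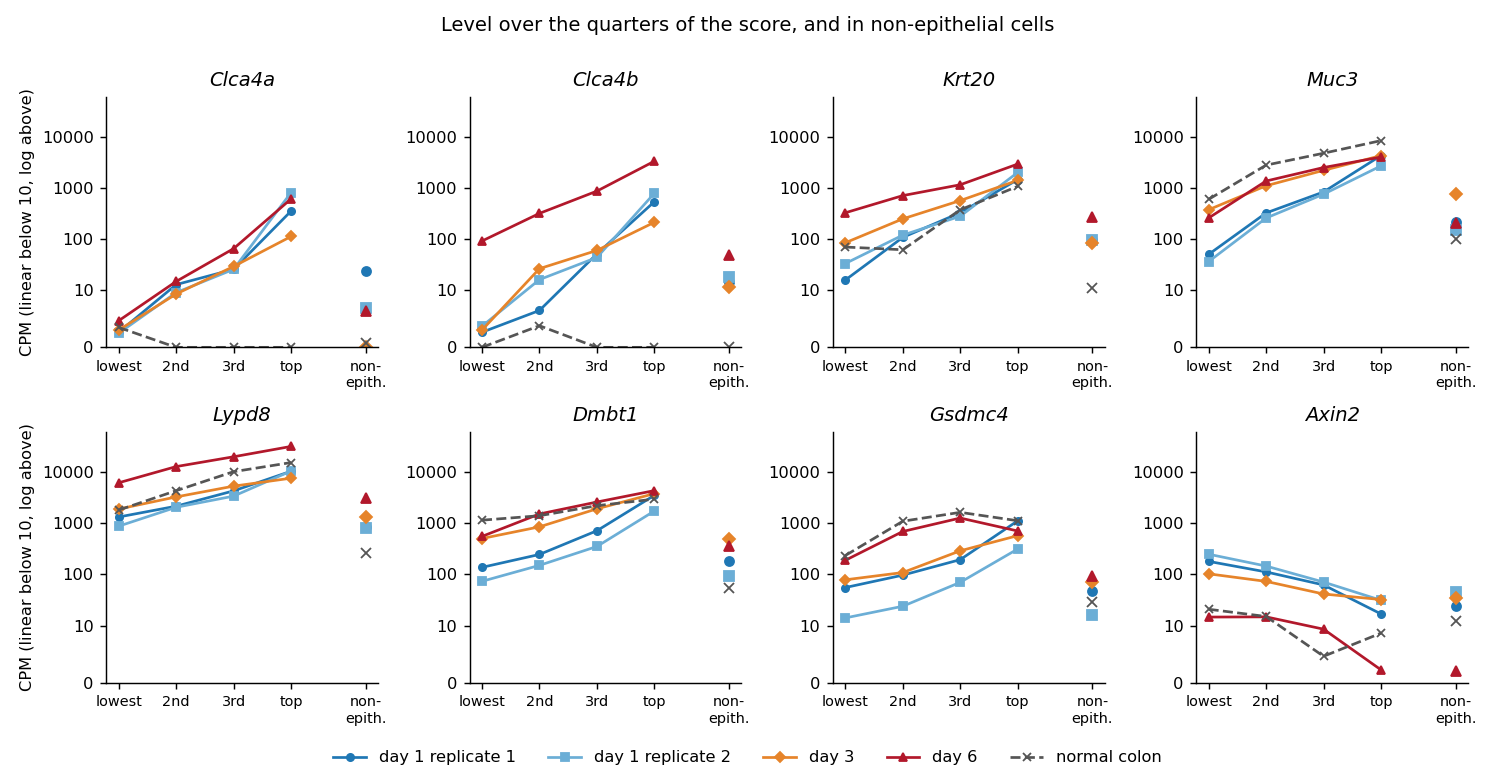
CPM of 8 genes (y axes, linear below 10 and logarithmic above) over the 4 score bins and, at the right of each panel, in the non-epithelial cells of the same library. The score genes, Lypd8 and Dmbt1 rise through the bins in the tumor libraries, Gsdmc4 peaks in the 3rd bin at day 6 and in normal colon, and Axin2 is lowest in the top bin of each tumor library.

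Gene lists for compartments and functions of the colon were counted in the same way. Their counts are to be read against 1.24% of all genes called higher and 0.973% called lower. Of the surface colonocyte list 16 of 20 genes passed the filter, 8 were called higher and 0 lower, and the median difference was 2.17, against -0.23 over all genes. Besides Lypd8, Ceacam20 and the gasdermins the 8 were Plac8, Dhrs9 and Mxd1, the last a Myc antagonist of differentiating cells, which stood at 679, 775, 539 and 1621 CPM in members and 74.2, 131, 183 and 299 CPM in the low-score set. Without the cells rich in other types' genes 6 of 16 were called. Of 15 brush border genes 14 passed the filter, all 14 were higher in members in each library, as were 14.1% of all genes, and 4 were called, with a median of 1.16. Cdhr2 and Cdhr5, protocadherins that link the tips of microvilli, differed by 2.09 ± 0.55 and 2.04 ± 0.37, and Cdh17 and the actin bundler Pls1 were the other 2. Villin (Vil1) stood at 313, 402, 235 and 481 CPM in members and 71.5, 149, 165 and 181 CPM in the low-score set.

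Of 20 ion and water transport genes that passed, 2 were called higher, Car1 and Atp12a, against 1.24% of all genes. Above 0 in each library were 14, against 14.1% of all genes, and the median was 1.06. Slc26a3, the chloride-bicarbonate exchanger of mature colonocytes, stood at 172, 25.02, 11.1 and 99.7 CPM in members. Aqp8, a water channel of the same cells, stood at 34.0, 19.7, 22.3 and 36.1 CPM. In the top bin of the normal colon library these genes stood at 1946 and 736 CPM. Members of the tumor libraries thus carried surface and brush border genes, while these 2 defining transporters of the mature colonocyte were lower in each tumor library than in normal colon. The sodium-proton exchanger Slc9a3 went the other way, with a mean difference of -1.18 ± 0.99, a wide spread between libraries. In the normal colon library it had 6 UMIs in the top bin and 0 in the low bin, and did not pass the filter. Tumor and normal libraries differ in dissociation and treatment and could not be tested against each other.

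Among transcription factors of the intestine 2 of 13 were called higher, against 1.24% of all genes. Klf4, which promotes exit from the cell cycle and differentiation, stood at 677, 559, 294 and 1428 CPM in members and 122, 205, 123 and 464 CPM in the low-score set (1.65 ± 0.52). Creb3l3, a membrane-bound factor of lipid metabolism, differed by 1.77 ± 0.50. Hnf4a was higher by 1.14 ± 0.49 without passing the call. Cdx2, which specifies intestinal identity, was higher in members by 1.19, 1.02 and 0.36 in day 1 replicate 1, day 1 replicate 2 and day 3 but differed by -1.02 at day 6. There it stood at 4.51 CPM in members and 19.4 CPM in the low-score set, against 109, 78.3 and 70.9 CPM in the members of the other tumor libraries and 283 CPM in those of normal colon. Its relative Cdx1 stood at 171 CPM in day 6 members, within the range of 133 to 181 CPM of the others.

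Stem cell and Wnt target genes mostly went the opposite way, though the plasma cell and enteroendocrine lists had lower medians (-2.41 and -1.49). Of 19 stem cell and Wnt genes that passed, 16 were lower in members in each library (34.8% of all genes were). Called lower were 4, against 0.973% of all genes, 0 were called higher, and the median was -1.42. Axin2, a feedback inhibitor and direct Wnt target, stood at 17.0, 31.4, 32.4 and 2.25 CPM in members and at 180, 249, 103 and 14.8 CPM in the low-score set (-1.97 ± 0.89). Nkd1 and Wif1, other Wnt inhibitors, differed by -1.94 ± 1.02 and -2.28 ± 1.21, and Prox1, a factor of colon tumor progression, by -1.78 ± 0.60. At day 6 the Axin2 level of members was close to the floor of 1.69 CPM that 3 UMIs give. Lgr5 itself was used by the rule. Without the cells rich in other types' genes 8 of 19 were called lower, and Ephb2, with 0.30 ± 0.26, was the only one above 0 in each library with all cells.

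**Figure D4:**
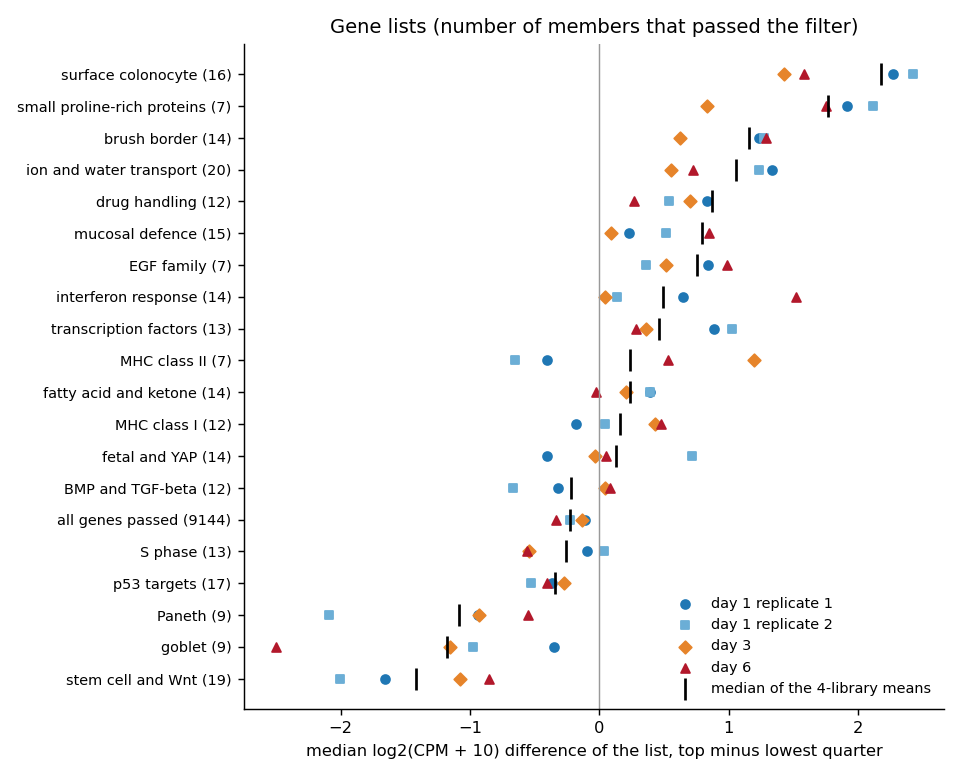
Median difference on the log2(CPM + 10) scale between members and low-score cells for 19 gene lists and for all 9144 genes, by tumor library, with the number of list members that passed the filter. Bars mark the median of the means over the 4 libraries. Of the lists plotted, surface colonocyte genes have the highest (2.17) and stem cell and Wnt genes the lowest (-1.42), and the interferon response list is highest at day 6.

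Among S-phase genes, whose mitotic companions the rule limits, none of 13 was called and the median was -0.26, close to that of all genes. Of 17 p53 target genes, which respond to DNA damage, none was called, 10 were below 0 in each library (34.8% of all genes were) and the median was -0.35. Without the cells rich in other types' genes Phlda3 was called lower (-1.19 ± 0.10). Trp53inp1 differed by -1.85 ± 0.71, while Perp, a junction protein, was higher by 1.16 ± 0.49. Cdkn1a, the cell cycle inhibitor, differed by 0.20 ± 0.66.

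Genes that handle the 2 drugs were unevenly distributed. Of 12 that passed, 3 were called higher and 0 lower, against 1.24% and 0.973% of all genes, with a median of 0.87. They were the efflux pumps Abcg2, which transports the active metabolite of irinotecan, and Abcb1a, and the carboxylesterase Ces2e. Abcg2 stood at 72.8, 53.2, 43.6 and 103 CPM in members and 5.30, 8.04, 4.54 and 24.9 CPM in the low-score set (1.95 ± 0.33). Abcb1a differed by 2.03 ± 1.29 and was not called without the cells rich in other types' genes, while Ces2e, at 1.84 ± 0.42, was. Abcc2, another efflux pump, differed by -1.31 ± 0.90, and Uck2, a pyrimidine kinase, by -1.20 ± 0.37. Top1, the target of irinotecan, differed by -0.37 ± 0.19.

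Small proline-rich genes, which encode cross-linked proteins of barrier epithelia, had a median of 1.77 over 7 genes, with Sprr2h and Sprr2a3 called. Sprr2a1, Sprr2a2 and Sprr2a3 share between 43.5% and 100% of the 30-base words at their 3′ ends, so the split of UMIs among these 3 is uncertain. Areg, a growth factor ligand of Egfr, differed by 1.92 ± 0.42 and was the 1 gene called higher in the EGF family list (7 genes) and in the fetal and YAP list (14 genes). Cldn2, a leaky claudin of the crypt base and 1 of 15 tight junction genes, was called lower (-1.56 ± 0.17). Bmp2 was higher by 1.64 ± 0.36, whereas Id3, a target of BMP signaling, differed by -1.51 ± 0.41. Of 15 mucosal defence genes Saa1 was called higher and the neutrophil attractant Cxcl2 lower (-1.60 ± 0.56). Of 14 fatty acid and ketone genes none was called. Among markers of other epithelial cells, set against 1.24% and 0.973% called over all genes, the counts were too small to read. No gene was called of 10 squamous, 9 goblet, 5 enteroendocrine and 3 tuft genes that passed, and the Paneth cell genes Mmp7 and Pla2g2a were called lower among 9. The goblet and enteroendocrine medians were -1.18 and -1.49, and without the cells rich in other types' genes the goblet gene Spink4 was called lower. Of leukocyte and stromal markers that passed, 4 plasma cell genes had a median of -2.41, 4 macrophage genes -1.02, 5 fibroblast genes -0.89 and 4 neutrophil genes -0.55, with none called in all 4 libraries, and 1 T cell and 1 endothelial gene passed.

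Lama3 and Lamb3, which encode laminin chains of the epithelial basement membrane, were among the called genes and are named here after their values were seen. Lama3 stood at 361, 706, 837 and 473 CPM in members and 125, 128, 295 and 38.1 CPM in the low-score set, and Lamb3 at 243, 532, 397 and 332 CPM against 92.7, 136, 114 and 53.7 CPM. In the normal colon library Lama3 stood at 13.1 CPM in the top bin. Plec, which ties keratin to such anchors, was called too, and Lama3, Lamb3 and Plec were also called without the cells rich in other types' genes. Hif1a, which lost the call there, Slc2a1 and Car9, genes of the response to low oxygen, were also called, the last at 170, 95.3, 183 and 206 CPM in members and 15.9, 11.1, 36.3 and 30.3 CPM in the low-score set. Of 10 genes of low oxygen and glycolysis looked at afterwards, the other 7 were not called.

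The genes lowest in members were led by globins. Hbb-bs stood at 1652, 335, 4.05 and 15.8 CPM in members and at 9556, 9096, 74.2 and 1020 CPM in the low-score set. Without the cells rich in other types' genes the differences of Hbb-bs, Hba-a1 and Hba-a2 were -0.70, -0.77 and -0.54 with none called, a setting that itself selects on globin UMIs. At day 3, where no cell of either set was rich in globin, Hbb-bs stood at 4.23 CPM in members and 79.3 CPM in low-score cells after that step. Of the 10 leading genes the other 7 were still called. Vim, the filament protein of mesenchymal cells, stood at 204, 42.0, 106 and 16.3 CPM in members and 906, 396, 356 and 198 CPM in the low-score set (-2.42 ± 0.66), and at 3478, 2145, 3486 and 1336 CPM in the non-epithelial cells. The rest were Tenm4, a transmembrane teneurin (-2.64 ± 0.59), Spock2, an extracellular proteoglycan, Rbms3, an RNA-binding protein, Robo1, a receptor for Slit ligands, Nav2, and Kcnma1, a potassium channel. Fibroblast markers summed to 70 to 124 CPM in members and 82 to 367 CPM in the low-score set, and their part in these differences was not tested. Ifitm3 and Ifitm2, interferon-induced membrane proteins also found in stem cells, were the 2 called genes of the interferon list and both were lower, with differences of -1.75 ± 0.75 and -1.29 ± 0.16.

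The day 6 members stood apart in genes induced by interferon gamma. Gbp2, a GTPase of defence against intracellular pathogens, stood at 1924 CPM in them and at 24.3, 5.86 and 14.2 CPM in members of day 1 replicate 1, day 1 replicate 2 and day 3. Over the 4 score bins of day 6 it stood at 219, 363, 448 and 1924 CPM, and the non-epithelial cells of that library had 407 CPM. It was found in 75.4% of day 6 members and 45.6% of the low-score set, or 59.1% and 22.98% after thinning to 1000 UMIs. Ido1, which degrades tryptophan, stood at 460 CPM in day 6 members, 31.9 CPM in the low-score set and 12.7 CPM in non-epithelial cells. Nos2, the inducible nitric oxide synthase, stood at 469, 42.8 and 23.3 CPM in the same 3 sets, and Cd274, the checkpoint ligand PD-L1, at 348, 50.6 and 102 CPM. In members of the other tumor libraries Ido1, Nos2 and Cd274 were at most 5.86 CPM. Without the cells rich in other types' genes Gbp2 stood at 1957 and 272 CPM and Cd274 at 349 and 56.4 CPM in members and low-score cells of day 6. Of 11 interferon gamma genes that passed, 0 were called over the 4 libraries, and their median difference was 2.09 at day 6 and 0.44 over all 4. The genes for these statements were picked after the values were seen, and 1 library carries them.

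MHC class II genes present antigen to helper T cells. H2-Aa, 1 of them, stood at 2646 CPM in day 6 members and 1380 CPM in the low-score set, but at 5477 CPM in non-epithelial cells of that library, and the part of free RNA in both was not tested. In the other members it stood at 112, 47.9 and 148 CPM. None of the 7 class II genes was called between bins, and their median difference was -0.41 and -0.65 in the day 1 libraries and 1.20 and 0.53 at days 3 and 6. None of 12 class I genes was called, with a median of 0.16. Duox2, an oxidase of the brush border, also peaked in day 6 members at 956 CPM, against 136, 232 and 198 CPM in the other members.

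**Figure D5:**
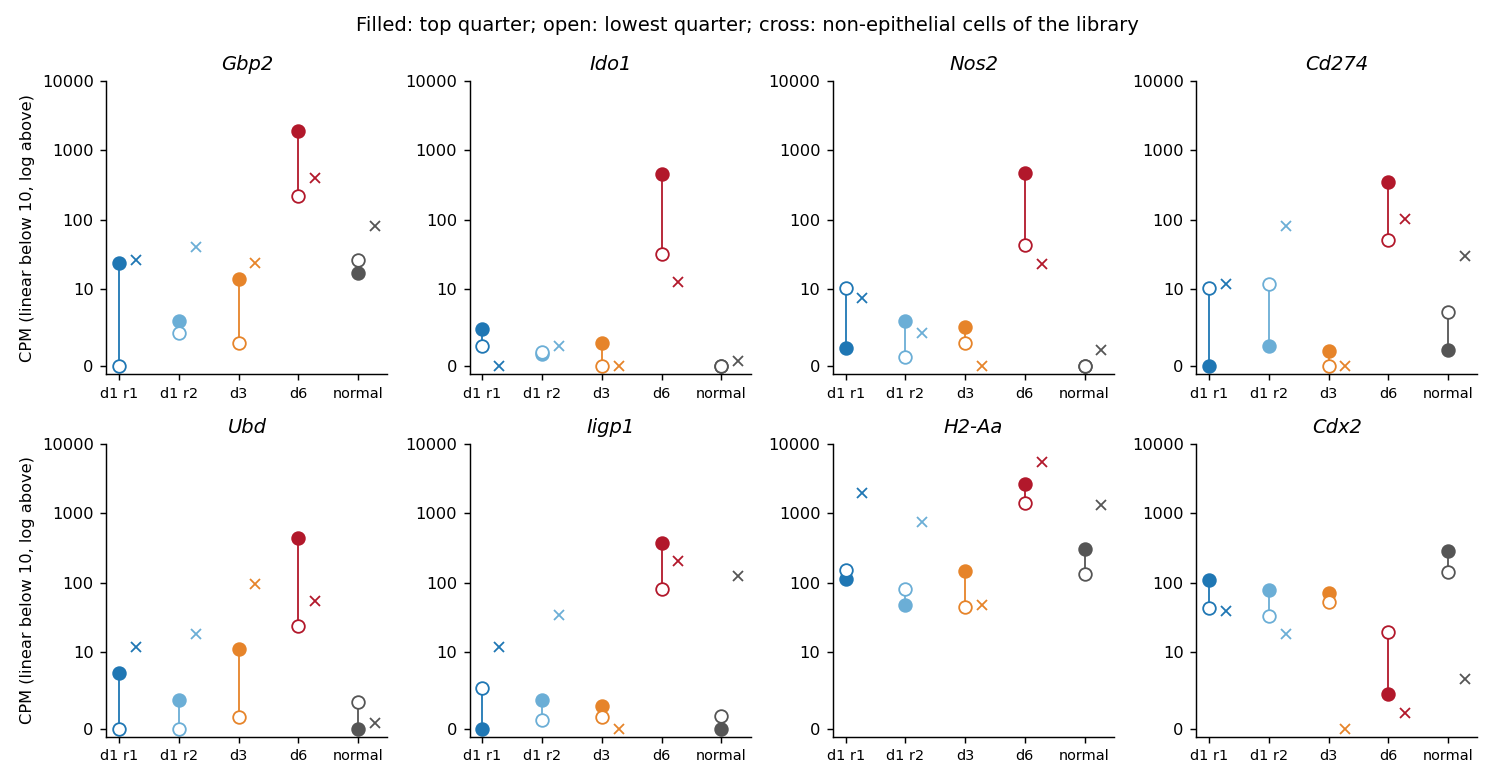
CPM (y axes, linear below 10 and logarithmic above) of 6 interferon gamma response genes, H2-Aa and Cdx2 in the top bin (filled), the low-score set (open) and the non-epithelial cells (cross) of each library; d1 r1, d1 r2, d3 and d6 are the tumor libraries. In Gbp2, Ido1, Nos2, Cd274, Ubd and Iigp1 the day 6 members stand above all other sets plotted, and in Cdx2 they stand at 4.51 CPM.

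The comparison of early with late treatment asked whether members differed between the earlier and the later days, and it carries a confounder. The Y-linked genes Eif2s3y, Uty and Ddx3y stood at 31.5 to 87.3 CPM in the members of both day 1 libraries and at 0 to 1.13 CPM in those of day 3 and day 6, while Xist stood at 0 and 0 and at 14.2 and 37.8 CPM. Treatment phase and the sex of the mice therefore cannot be told apart. In edgeR's quasi-likelihood test with Benjamini-Hochberg adjustment, 0 of 9499 genes (0%) passed an adjusted p of 0.05 between late and early members, while 412 had an unadjusted p under 0.05 and DESeq2 called 14 higher and 12 lower. The same test in the low-score set called 0 of 9913 genes (0%), with 871 under an unadjusted p of 0.05.

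The smallest p-values in the lower direction belonged to Eif2s3y, Rpl39 and Uty, each with an adjusted p of 0.195 in edgeR's quasi-likelihood test. Rpl39, an X-linked ribosomal protein gene, stood at 666, 383, 27.2 and 24.2 TMM-scaled CPM in members. In the higher direction they belonged to Calml3, Cbr2 and Ltf, with adjusted p of 0.236, 0.236 and 0.405. Cbr2, a carbonyl reductase, stood at 24.7, 14.1, 175 and 239 TMM-scaled CPM and was higher late by 2.43 within the single-index libraries and by 3.34 within the dual-index ones on the log2(CPM + 10) scale. Ltf, the iron-binding defence protein lactoferrin, stood at 22.5, 7.53, 158 and 354, and Calml3, a calmodulin-like protein, at 6.75, 3.76, 68.4 and 72.5 TMM-scaled CPM. None of the 6 genes passed the test.

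Without day 3 the test called 268 genes higher and 74 lower in members, led by Ido1, Nos2 and Cd274, and without day 6 it called 83 higher and 92 lower, led by Cyp2f2 and Ltf. Both fits use the same day 1 libraries, and in them the lone late library is assumed to vary like the day 1 pair. Of the listed groups none had a called gene, and the class II list had 5 of 7 and the class I list 7 of 10 tested genes with an unadjusted p under 0.05, all higher late, against 239 of 9499 genes higher at that level. For these genes day 6 stood apart from day 3: B2m, the light chain of class I, stood at 405, 123, 411 and 4043 TMM-scaled CPM, and H2-Aa was higher by 0.50 at day 3 within the single-index libraries and by 6.01 at day 6 within the dual-index ones on the log2(CPM + 10) scale. The squamous list had 7 of 12 under that unadjusted p, also higher late. Surface colonocyte genes had 1 of 18 and p53 targets 2 of 16, the latter both lower. Summed squamous markers stood at 1518, 982, 2659 and 3060 CPM in members in library order. In the non-epithelial cells they stood at 1910, 927, 7964 and 4200 CPM, and the part of free RNA was not tested.

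The size of the top-minus-low difference changed with phase for 5 of 10732 genes (0.0466%) in edgeR's quasi-likelihood test of the interaction with the library as a block. Fcgbp, a mucus protein of goblet cells, changed by -3.20 ± 0.36 (SE) from early to late (adjusted p = 0.0143). It stood at 337, 229, 18.2 and 113 CPM in members and at 172, 180, 89.3 and 838 CPM in the low-score set, and without the cells rich in other types' genes the change was -0.97 with an adjusted p of 0.656. Cd274 rose by 5.34 ± 0.70 (adjusted p = 0.0349), a change carried by day 6, since at day 3 it had 2.03 and 0 CPM. Sprr1a, Gsdmc2 and Mall, a membrane protein of the apical surface, changed by -2.64 ± 0.38, -2.45 ± 0.35 and -2.42 ± 0.35, each with an adjusted p of 0.0428. Sprr1a stood at 420, 739, 319 and 273 CPM in members and 68.9, 75.4, 204 and 274 CPM in the low-score set. Mall stood at 272, 336, 346 and 386 CPM in members and 18.5, 26.6, 124 and 191 CPM in the low-score set. Since the score cutoffs were higher in the late libraries, the 2 bins do not hold cells of the same score in both phases, and the part of this in the 5 changes was not tested. Without day 1 replicate 2 the same test called 0 genes, without day 1 replicate 1 it called 12, without day 3 it called 473 and without day 6 it called 65.

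Applied to the untreated colon library, the same rule chose 80 of 317 eligible cells with a cutoff of 65.6 UMIs per 10000, close to that of day 6. Clca4a and Clca4b had 0 UMIs in these cells, against a floor of 6.53 CPM for 3 UMIs. Muc3 held 88.6% of the score UMIs and stood at 8330 CPM, and Krt20 at 1067 CPM. The genes called higher in the tumors were mostly higher here too: of 113 genes 99 passed the filter of a mean of at least 10 CPM and at least 20 UMIs, and 81 of these (81.8%) were at least 1 higher in the top bin, against 9.95% of all 6843 genes. Of the 43 called lower that passed, 30 (69.8%) were at least 1 lower, against 15.5% of all genes. Cells rich in goblet genes were 28 of 80 in the low bin of this library and 0 of 80 in its top bin, with Muc2 at 13174 and 91.4 CPM, and their part in these counts was not tested. With 1 library these counts have no replicate, and its bins were drawn with the same Muc3 and Krt20.

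Some tumor member genes had little or no counterpart in the normal library. 2010109I03Rik had 0 UMIs in its columnar cells, and Aldh1a3 and Dhrs9 had 0 in its top bin, against 322 to 1000 and 136 to 219 CPM in tumor members. Sprr1a stood at 43.5 CPM in the normal top bin, against 273 to 739 CPM in tumor members. In the other direction Abcb1a stood at 1032 CPM and Areg at 1147 CPM in the normal top bin, against 34.4 to 177 and 156 to 223 CPM in tumor members. Clca3b, a relative of the score genes, was called higher in tumors and had a difference of -2.52 in the normal library.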

How the data were processed

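Whole-number UMI counts per gene and cell were deposited by the authors, 1 table per library, made with dropEst on mouse build GRCm38; the version is not given in the sources used here. Libraries held 752 to 2830 barcodes and, after the limits on genes and mitochondrial share, 5124405 to 16786230 UMIs. Counts were summed per library and bin. Members and low-score cells were compared on log2(CPM + 10) with no test, since the score chose the cells. Late and early sums, and the interaction of bin with phase with library as a block, were tested with edgeR 4.0.16 (R 4.3.3) using TMM factors and Benjamini-Hochberg adjustment, and DESeq2 1.42.0 was the alternative. The labels do not say which animals gave each library, so p-values measure only the spread between these samples. Both fits were tested on simulated data. No doublet caller was run, and the deepest 5% of cells were left out in an alternative. The members, 29 gene lists and 3 lists added later were chosen with earlier results of these data known. Named genes were the 4 score genes, the 15 most positive and 10 most negative called differences, the most different and most abundant list members, and the smallest p-values of each test, and others are named as chosen after their values were seen: the laminin, low oxygen, interferon gamma, sex-linked and normal colon genes.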

Additional observations from a re-analysis of the deposited data

Results flagged for a closer look

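In 5 genes the difference between members and low-score cells differed between the early and the late libraries by edgeR's quasi-likelihood test of the interaction. The change was -3.20 on the log2 scale for Fcgbp, 5.34 for Cd274, -2.64 for Sprr1a, -2.45 for Gsdmc2 and -2.42 for Mall. For Fcgbp it was -0.68 without the 25% of cells highest in secretory markers, with an adjusted p of 0.835 in the same test. Cd274, Sprr1a, Gsdmc2 and Mall changed there by 4.96, -2.45, -2.57 and -2.38, each with an adjusted p of 0.163. With cells scored after thinning to 1000 UMIs, none of the 5 passed the test. The adjusted p was then 0.242 for Fcgbp, 0.153 for Cd274, 0.124 for Sprr1a, 0.216 for Gsdmc2 and 0.153 for Mall. Phase and the sex of the mice cannot be told apart in any of the 5.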

How the results depend on the processing

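The counts of genes higher and lower in members were 113 and 89. The lower count was 290 with a pseudocount of 2 CPM and 58 with a filter at 50 CPM. It was 43 with Muc3 left out of the score, which enlarged the low-score set, and 56 with 3 score bins in place of 4. Both counts moved with a pseudocount of 50 CPM (49 and 10), TMM scaling (181 and 44), a mean over cells (74 and 44) and thinning to 1000 UMIs (55 and 41). Leaving out each library gave 121 to 211 higher and 90 to 230 lower. Late against early, 0 and 0 genes passed, against 14 and 12 with DESeq2, 151 and 31 with no filter and 15 and 2 with day as a number. Leaving out each library gave 0 to 268 higher and 0 to 92 lower. The phase change, 5 genes, was 14 with DESeq2, 2 with RLE scaling, 121 with no filter, 0 after thinning, 2 without the deepest cells, 0 without the cells highest in secretory markers, 11 without cells rich in other types' genes and 0 to 473 without each library. The cause was not tested. The late minus early cutoff ran from 17.1 to 42.7 without each library. Named differences kept within their spread in 742 values and moved in 56, and no called value changed sign. Both settings on secretory and other types' cells were chosen after seeing the data, since a planned limit of 3 secretory UMIs left 1, 14, 12 and 24 cells. No analysis paired by replicate number was possible, because the early and late groups share fewer than 2 of these numbers. With single- or dual-index structure as a block, the late-early test called 0 and 0 genes, with 622 under an unadjusted p of 0.05. Single libraries for days 3 and 6 limit what the tests can show.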
